A study of Mus musculus with 4 samples.

Results

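The nuclear-encoded respiratory chain genes are the genes in the nucleus for the protein subunits of complexes I to V of the mitochondrial inner membrane. They were taken by symbol from the 21883 nuclear protein-coding genes of a RefSeq table: Ndufa, Ndufb, Ndufc, Ndufs and Ndufv genes (assembly factors named Ndufaf left out), Sdha to Sdhd, and genes starting Uqcr, Cox4i, Cox5, Cox6, Cox7, Cox8 or Atp5. The rule found 88 genes. Open chromatin had been profiled by ATAC-seq, in which a transposase cuts accessible DNA, on nuclei of the mouse hypothalamic paraventricular nucleus (PVH), at 12 weeks of age. All mice were Otp fl/fl; Ai14, that is with loxP-flanked Otp and a Cre-dependent reporter, and all had been injected with an adeno-associated virus and dissected 4 weeks later. There were 2 libraries from AAV-GFP mice (controls) and 2 from AAV-Cre mice, in which Cre removes Otp, the gene of a homeobox factor needed in hypothalamic development. The study asked whether loss of Otp leaves chromatin less open near its targets. The labels name no promoter driving GFP or Cre, no sorting of infected nuclei, and no number of animals per library.

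Complex I (NADH dehydrogenase), complex II (succinate dehydrogenase) and complex III (cytochrome bc1) pass electrons toward complex IV (cytochrome c oxidase), which reduces oxygen, and complex V (ATP synthase) makes ATP from the proton gradient that complexes I, III and IV build. Neurons depend on this chain for ion pumping and synaptic transmission. Most subunits are made in every cell, but complex IV has isoforms known mainly from muscle, lung or testis. The factors NRF1, GABP, YY1 and the oestrogen-related receptors are known to bind promoters of many of these genes.

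The deposited data are lists of peaks, with 57682 and 34100 peaks in the AAV-GFP libraries and 23384 and 26612 in the AAV-Cre libraries. No read counts were used, so depth is unknown, and a longer list can hold a gene's peak where a shorter list does not. With 4 libraries there are 3 ways to split them into pairs, which puts the lowest exact p of a group comparison at 0.33, so no exact test could reach significance. Peaks at the ends of Otp itself had a fold enrichment of 3.73 and 4.22 in controls and 5.52 in AAV-Cre replicate 2, with none in AAV-Cre replicate 1, and do not check the deletion. Of 7 PVH neuron markers, 5 and 4 had a peak at a gene end in the control libraries and 2 and 3 in the AAV-Cre libraries, while none of 3 microglial and 3 endothelial markers had one. In the same library order, 3, 3, 2 and 2 of 4 general neuron markers were open, 3, 2, 1 and 2 of 4 astrocyte markers, 3, 2, 0 and 2 of 4 oligodendrocyte markers and 2, 2, 1 and 2 of 3 skeletal muscle and heart markers. The part of cell makeup in the counts that follow was not tested. In tissue of mixed cells, fewer open cells and less open chromatin per cell cannot be told apart.

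A gene was counted as open at its ends where a peak lay within 1 kb of its lower or upper end. In the AAV-GFP libraries 76 and 74 of the 88 respiratory chain genes had such a peak (86.4% and 84.1%), and in the AAV-Cre libraries 61 and 66 did (69.3% and 75%). In these full lists the control counts did not overlap those after AAV-Cre. Over all genes the shares fell in the same order, at 56.2%, 52.2%, 45.5% and 47.1%. With each list cut to 23384 peaks, the AAV-GFP counts became 63 and 69 of 88. The AAV-Cre counts became 61 and 63, so the groups then met at 63 genes. The all-gene shares became 46.0%, 47.2%, 45.5% and 45.1%, in the same library order. In the full lists 57 genes (64.8%) were open in all 4 libraries, against a background of 41.4% of all protein-coding genes, and 11 (12.5%) were open in none, against 41.9%. Cytosolic ribosomal protein genes, another family of ubiquitously used genes, lay close by, with 71 genes (70.3%) open in all 4 libraries. The bar chart of shares by library shows these lists side by side.

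**Figure D1:**
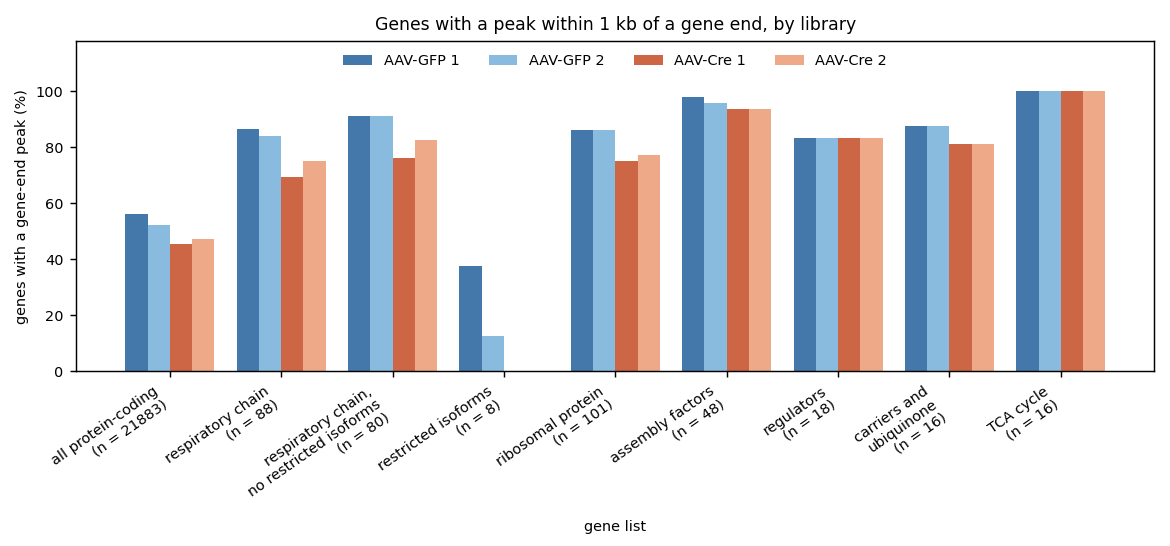
Share of genes in each list with a peak within 1 kb of a gene end (vertical axis, percent) in each of the 4 libraries (bars), with the number of genes in brackets. Respiratory chain genes lie at 69.3% to 86.4%, above all protein-coding genes at 45.5% to 56.2%, and the 16 tricarboxylic acid cycle genes are at 100%.

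Promoter sequences of 5 members show the bases just before the start site, which hold only a part of each peak. Given are the 250 bases before the start site, 5′ to 3′ on the gene's strand, from RefSeq on GRCm38.p6 (the mm10 build), for 2 genes with a peak in the controls only (Ndufa9 and Ndufs4, described further on) and for the most strongly open members of complex I and complex V. Most of each Ndufa9 and Ndufs4 peak lay inside the gene, beyond the bases given. Capitals mark matches to the motifs listed after them.
Ndufa9, chr6:126849145-126849394, minus strand: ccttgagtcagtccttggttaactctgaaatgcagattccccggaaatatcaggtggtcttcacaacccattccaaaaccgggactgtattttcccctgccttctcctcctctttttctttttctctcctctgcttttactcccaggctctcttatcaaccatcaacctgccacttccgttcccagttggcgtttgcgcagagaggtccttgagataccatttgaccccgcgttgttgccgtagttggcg
Ndufs4, chr13:114388095-114388344, minus strand: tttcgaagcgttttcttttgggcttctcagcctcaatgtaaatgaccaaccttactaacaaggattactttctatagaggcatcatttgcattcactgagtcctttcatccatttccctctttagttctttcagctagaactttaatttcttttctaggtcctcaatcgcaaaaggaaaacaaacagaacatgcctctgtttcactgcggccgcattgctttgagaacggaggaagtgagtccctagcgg
Ndufv1, chr19:4012756-4013005, minus strand: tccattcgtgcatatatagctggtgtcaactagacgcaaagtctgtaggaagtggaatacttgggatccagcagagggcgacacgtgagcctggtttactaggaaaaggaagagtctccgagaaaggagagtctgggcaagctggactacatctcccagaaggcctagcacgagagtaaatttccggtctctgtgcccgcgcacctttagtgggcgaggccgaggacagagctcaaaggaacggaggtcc
Atp5e, chr2:174464102-174464351, minus strand: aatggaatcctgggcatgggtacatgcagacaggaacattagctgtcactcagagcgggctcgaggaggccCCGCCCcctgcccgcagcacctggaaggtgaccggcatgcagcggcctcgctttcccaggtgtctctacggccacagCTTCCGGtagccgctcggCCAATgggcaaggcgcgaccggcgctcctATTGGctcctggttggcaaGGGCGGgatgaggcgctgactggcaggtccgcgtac
Ndufa6, chr15:82354292-82354541, minus strand: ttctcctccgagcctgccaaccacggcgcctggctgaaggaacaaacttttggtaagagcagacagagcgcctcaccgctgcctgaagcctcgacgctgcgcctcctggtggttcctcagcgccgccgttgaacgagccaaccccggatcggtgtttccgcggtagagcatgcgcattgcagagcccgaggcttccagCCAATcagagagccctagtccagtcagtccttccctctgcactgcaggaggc

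The motif strings searched on both strands were the NRF1 consensus and a looser form of it with any base at 1 central position, which includes the strict form, and CCGGAAG for ETS factors such as GABP, AANATGGC for YY1, AAGGTCA for oestrogen-related receptors, GGGCGG for Sp and KLF factors, CCAAT for NFY, and TGACGTCA for CREB. In the bases shown, Atp5e held 1 ETS, 2 Sp or KLF and 2 NFY matches and Ndufa6 held 1 NFY match, while Ndufa9, Ndufs4 and Ndufv1 held no match to these letters. The counts that follow also take in 50 bases after the start, not shown. With these, Ndufa9 and Ndufs4 each held 1 YY1 match. Atp5e then also held 1 AAGGTCA match, Ndufa6 also 1 looser NRF1 and 1 Sp or KLF match, and Ndufv1 still none. A match is only a run of letters, and its absence says nothing of a factor.

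A promoter of 300 bases, 250 before and 50 after the start, was listed for 71 of the 88 genes, and for 17491 of all genes. Of the 52 respiratory chain genes with a peak within 1 kb of the start site in all 4 libraries, 16 (30.8%) held the looser NRF1 string, against 13.5% of the 7707 genes open there in all 4 libraries and 7.17% of all genes. The YY1 string was in 21.2% against 10.7% of genes open in all 4 libraries and 7.46% of all genes. The receptor string AAGGTCA was in 13.5% against 3.5% and 4.73%, and TGACGTCA in 7.69% against 4.15% and 2.54%. The Sp and KLF string went the other way, in 44.2% against 73.5% and 49.2%, while the ETS string (25%, 22.2% and 12.9%) and CCAAT (38.5%, 46.4% and 42.3%) lay nearer to the other genes. In the 19 members without a start-site peak in all 4 libraries the looser NRF1 string was in 5.26% and the YY1 string in 31.6%. In the 78 ribosomal protein genes with a listed promoter, the looser NRF1 string was in 8.97%, against 23.9% of the 71 members. The YY1 string was in 17.9% against 23.9%, AAGGTCA in 6.41% against 11.3% and TGACGTCA in 6.41% against 5.63%. The ETS string was in 34.6% against 23.9%, GGGCGG in 61.5% against 40.8% and CCAAT in 34.6% against 42.3%. These shares were not tested. Median GC content of the promoters was 57.5% in the family and 56.3% in all genes. The strict NRF1 string was in 5 respiratory chain genes, and its sites are shown with 10 bases to each side, the string in capitals.
Atp5g2, chr15:102671070-102671099, minus strand: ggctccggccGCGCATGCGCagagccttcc
Atp5k, chr5:108434430-108434459, minus strand: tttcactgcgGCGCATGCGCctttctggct
Cox6a1, chr5:115349101-115349130, minus strand: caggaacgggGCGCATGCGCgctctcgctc
Ndufa11, chr17:56717692-56717721, plus strand: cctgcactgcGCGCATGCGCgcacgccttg
Uqcrc1, chr9:108936668-108936697, plus strand: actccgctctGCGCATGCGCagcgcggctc

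Of the 5, Atp5g2 (a c-ring subunit of ATP synthase), Atp5k (a subunit of its membrane part), Ndufa11 (a membrane arm subunit of complex I) and Uqcrc1 (a core protein of complex III) were open in all 4 libraries. Cox6a1, a complex IV subunit, had folds of 4.69 and 4.89 in controls and 3.79 in AAV-Cre replicate 2, with no peak in AAV-Cre replicate 1. Counted from the start site, the string begins at base -42 in Atp5g2, -50 in Atp5k, -60 in Ndufa11 and -162 in Cox6a1, and at base 31, inside the transcript, in Uqcrc1.

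Peaks were centred just upstream of the start sites. The summit, the highest point of a peak, lay at a median of 47 and 67 bp upstream in the controls and 62 and 42 bp upstream after AAV-Cre, close to the 50, 47, 44 and 44 bp of all genes. The strongest start-site peak covered the start base itself in 94.0%, 90.8%, 90.7% and 93.4% of the open respiratory chain genes, against 79.4%, 78.1%, 72.2% and 73.3% of all open genes. Open ribosomal protein genes lay nearer to the family, at 94.3%, 88.6%, 84.7% and 84.1%. The histogram of summit distance shows this shape in each library.

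**Figure D2:**
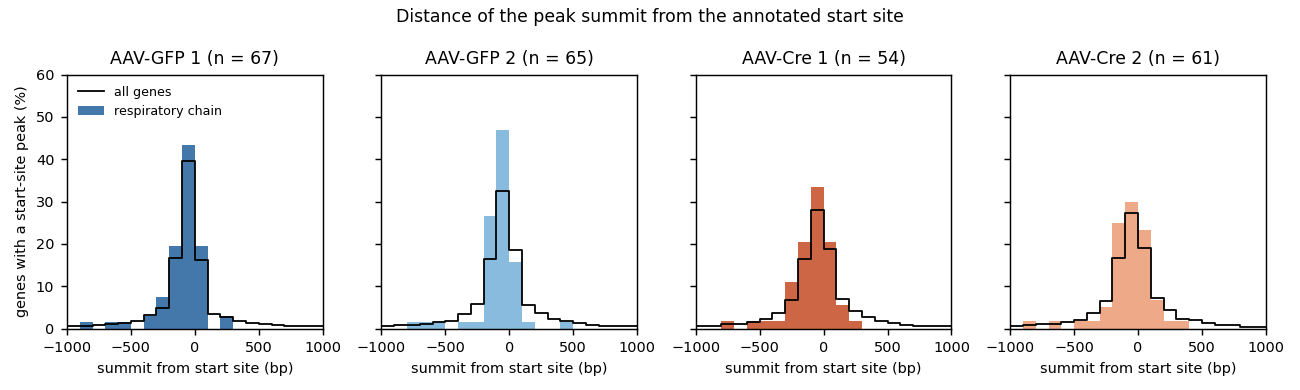
Distance of the peak summit from the annotated start site (horizontal axis, bp, negative is upstream) in each library, as the percentage of genes with a summit within 1 kb (vertical axis), for respiratory chain genes (bars) and all genes (line). In all 4 libraries the most common bin is the 100 bp just before the start.

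The gene-end window missed open start sites where RefSeq places a gene end far outside them. Cox5a and Cox7a2, both complex IV subunits, lacked gene-end peaks throughout, but their listed start sites lie 3904 and 11569 bp inside the annotated gene. At its start site Cox5a had folds of 7.06 and 6.27 in the controls against 8.13 and 7.82 after AAV-Cre. The Cox7a2 start had folds of 16.0 and 14.97 in the controls against 8.43 and 11.13 after AAV-Cre. Both starts were thus open in all 4 libraries. Atp5g3 (a c-ring subunit of ATP synthase) was open at the gene end in 3 libraries and at the start site in all 4. Atp5d (the delta subunit), also open at the gene end in 3 libraries, had a peak within 1 kb of a listed start in all 4. Its summits lay at -830 and -795 bp in the controls and -792 and -807 bp after AAV-Cre, and these peaks did not cover the start.

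By complex, complex IV had the lowest share of open genes. Genes were assigned to complexes by symbol alone. All Nduf genes, Ndufa4 and Ndufa4l2 among them, were thus counted in complex I, whatever complex their proteins join. Gene-end peaks were present in all 4 libraries in 28 of 41 genes of complex I (68.3%), 3 of 4 of complex II (75%), 7 of 8 of complex III (87.5%), 6 of 18 of complex IV (33.3%) and 13 of 17 of complex V (76.5%). In complex IV, 8 of 18 genes had a peak in no library. These include 5 tissue-restricted isoforms (below), and Cox5a and Cox7a2, whose start sites were open in all 4 libraries. The restricted isoforms, all but Ndufa4l2 of complex IV, were never open in all 4. Besides Cox5a and Cox7a2, the complex IV genes Cox6a1, Cox6c and Cox7b, which are not such isoforms, were not open in all 4 either. How far the isoforms account for the low share was not tested. The map of the 77 genes with a gene-end peak in any library shows every peak by its percentile, the position in its own list by −log10 p, where 0 is the strongest.

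**Figure D3:**
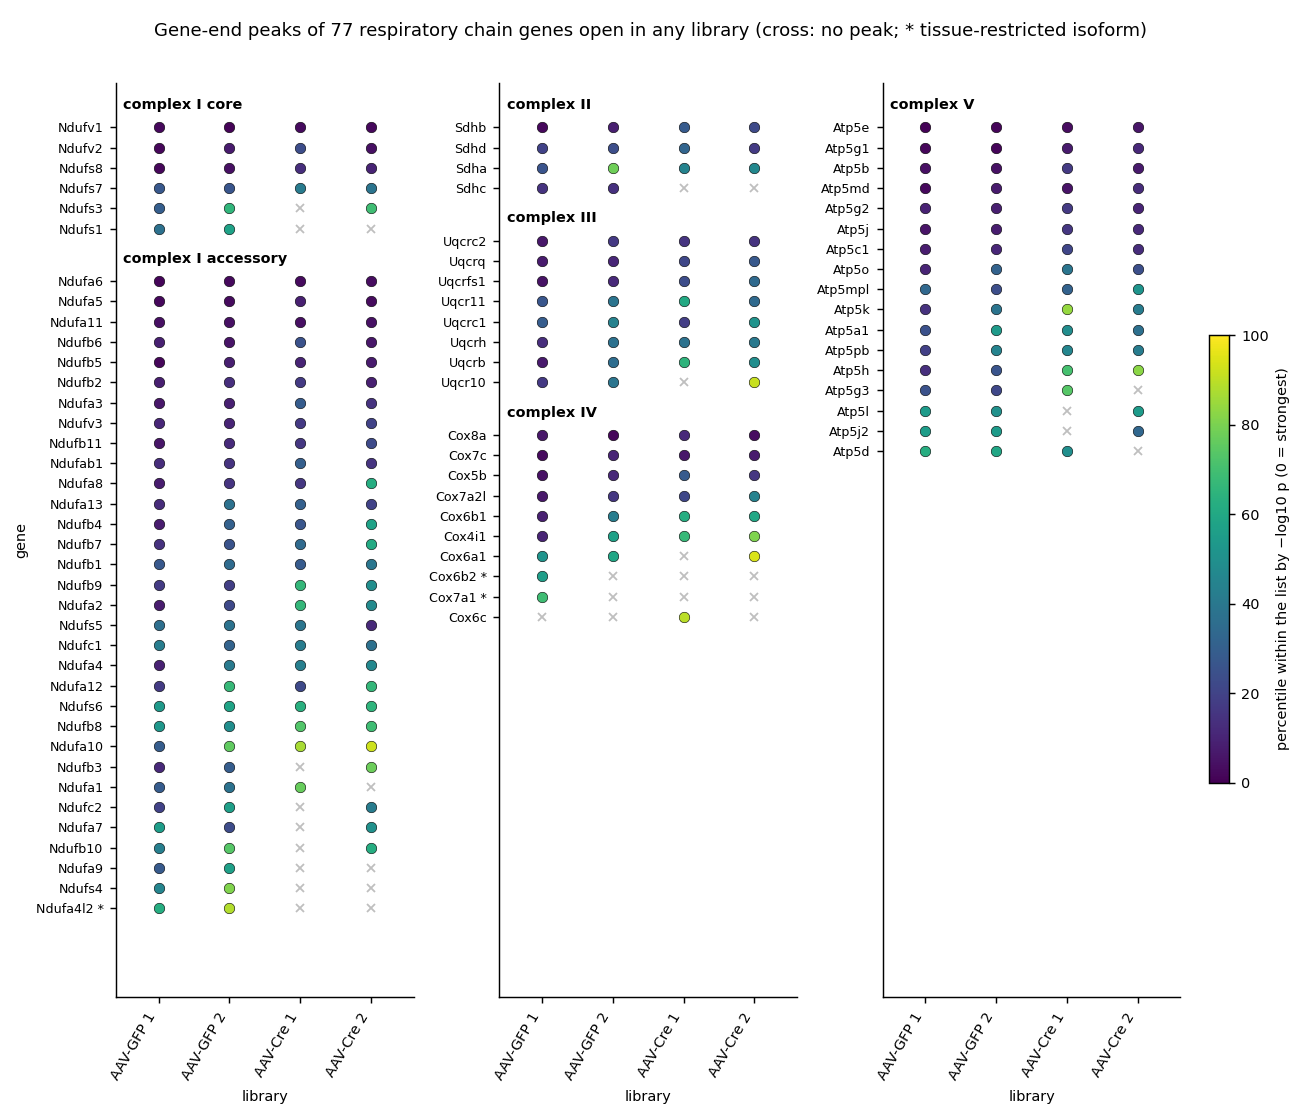
Gene-end peaks of the 77 respiratory chain genes with a peak in any library (rows, by complex) in the 4 libraries (columns). A dot is the strongest peak within 1 kb of a gene end, coloured by its percentile in that library's list (0 is the strongest), a cross is no peak, and stars mark the 3 of 8 tissue-restricted isoforms shown, none of which has a peak in an AAV-Cre library.

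Isoforms known from muscle, heart, lung, testis or low oxygen were seldom open. Of 8 such genes, 0 had a peak in all 4 libraries and 5, all of complex IV, had none at all: Cox4i2 (lung), Cox7b2 and Cox8c (testis), and Cox6a2 and Cox8b (heart and muscle). Cox7a1, a heart and muscle isoform, was open in AAV-GFP replicate 1 only (fold 4.18), and so was the testis isoform Cox6b2 (5.26). Ndufa4l2, a hypoxia-induced relative of Ndufa4, had weak peaks in both controls (3.35 and 3.05). Among the other 80 genes 57 (71.2%) were open in all 4 libraries and 6 in none, among them Cox5a, Cox7a2 and Cox7b. Cox7b, an X-linked complex IV subunit, had no peak at its listed start site either. Cox6c, a further complex IV subunit, had a single weak peak, in AAV-Cre replicate 1 (fold 4.31, percentile 89.6).

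Among complex I core subunits, which carry the flavin and the iron-sulphur clusters, Ndufv1 (the NADH-binding flavoprotein) was the strongest. Here and for the other complexes, strongest and weakest go by the median percentile over the libraries in which a gene has a peak, so genes missing a library are placed on fewer values, and an order by fold can differ. Its folds were 13.97 and 18.29 in the controls against 12.61 and 13.14 after AAV-Cre, all within the strongest 3.07% of their lists. Ndufv2 had folds of 14.39, 10.58, 6.97 and 11.91 in the same order, and Ndufs8 12.87, 11.43, 7.73 and 8.57. Ndufs3 had the weakest median percentile, with folds of 6.22 and 4.92 in the controls and 4.93 in AAV-Cre replicate 2. Ndufs1 had lower folds in both controls (5.42 and 4.69) and no peak after AAV-Cre.

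Among accessory subunits of complex I, which surround the core, Ndufa6 had the strongest median percentile, with folds of 15.25 and 14.42 in the controls against 12.17 and 11.63 after AAV-Cre. Ndufa5 had higher folds in 3 of 4 libraries (16.94, 15.68, 10.26 and 12.18). Ndufa10, open in all 4 libraries, had the weakest median percentile. Its folds were 6.93, 4.80, 4.28 and 4.13 in the same order, and its percentiles 29.1, 75.7, 87.1 and 92.2. In the controls Ndufa4l2, at 62.1 and 88.5, and Ndufs4, at 45.4 and 81.1, were weaker than Ndufa10.

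In complex II the gene for the membrane anchor, Sdhc, and that for the iron-sulphur subunit, Sdhb, held the strongest control peaks, and that for the flavoprotein, Sdha, the weakest (folds of 8.18, 4.62, 6.44 and 5.98). In complex III the core protein gene Uqcrc2 had the strongest median percentile (folds of 13.00, 9.59, 9.05 and 8.65), although Uqcrfs1, the Rieske iron-sulphur protein, had higher folds in both controls (15.29 and 11.4). Uqcrb, a small subunit at the ubiquinone site, was the weakest by median percentile (14.22, 7.63, 5.39 and 6.15). In complex IV Cox8a, a small membrane subunit, had the strongest median percentile (9.67, 15, 8.04 and 11.87), while Cox7c had higher folds in 3 of 4 libraries (18.48, 12.76, 12.59 and 11.98). Of the complex IV genes open in all 4 libraries, Cox4i1, the ubiquitous subunit 4 isoform, was the weakest (8.77, 4.74, 4.45 and 4.16).

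In complex V the strongest was Atp5e, the epsilon subunit of the rotor stalk, with folds of 19.92 and 19.81 in the controls against 13.14 and 11.53 after AAV-Cre. The weakest by percentile was Atp5d, at 2.87 and 3.38 in the controls, 4.02 in AAV-Cre replicate 1 and no gene-end peak in AAV-Cre replicate 2. Folds are the authors' values and were set side by side only to describe each list, since they are not scaled between lists.

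After AAV-Cre, 5 genes lacked a gene-end peak that both controls had, and 0 genes showed the converse. This is 5.68% of the 88 genes, against a background of 3.09% of all protein-coding genes for loss and 0.0868% for gain. More of the family is open to begin with: of the 74 genes with a peak in both controls, 6.76% had none in either AAV-Cre library, against 6.07% of all such genes, a share near the background. The 5 genes are Sdhc, Ndufs1, Ndufa9, Ndufs4 and Ndufa4l2. In lists of equal length 4 genes were control-specific (4.55%, background 1.18%) and 0 Cre-specific (background 0.695%). Of the genes then open in both controls, this is 4 of 61 in the family, a larger share than the 258 of 9374 over all genes. The 4 were Sdhc, Ndufs1, Ndufa9 and Uqcr10, a small complex III subunit. Equal length drops weak peaks of the longer lists, and this ended the calls of Ndufs4 and Ndufa4l2 by taking away control peaks. It made the call of Uqcr10 by taking away its peak in AAV-Cre replicate 2. By merged region the count was again 5 (background 2.98%), and at start sites it was 2 of 71, Ndufa9 and Ndufs4 (background 2.93%). At a −log10 q of at least 5 the count was 13 (14.8%, background 5.33%). Of the 68 genes then open in both controls this is 19.1%, against 11.8% of all such genes. Without AAV-Cre replicate 1 the count was 8 (9.09%, background 5.72%), and without AAV-Cre replicate 2 it was 14 (15.9%, background 6.91%).

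Sdhc, on chromosome 1 from 171129157 to 171150640, had the strongest of these peaks, at its upper end from 171150378 to 171150692 in AAV-GFP replicate 1 (fold 9.67, percentile 14.7) and from 171150308 to 171150719 in AAV-GFP replicate 2 (10.32, 13.9). In the AAV-Cre libraries the nearest peaks lay 36191 and 36241 bp away. Sdhc was control-specific in each of 12 alternatives run, which left out the start-site reading because the promoter table lists none for it. Leaving out a library or pairing same-numbered libraries could not undo such a call. The tallies here and below include these alternatives, so they overstate how far the calls were tried.

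Ndufs1, the largest core subunit of complex I, lies on chromosome 1 from 63143592 to 63176822. Its control peaks at the upper end had folds of 5.42 and 4.69 and percentiles of 36.9 and 57.8. The nearest AAV-Cre peaks lay 4260 and 4275 bp away. The call held in 12 of 12 alternatives.

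Ndufa9, a supernumerary subunit on chromosome 6 from 126821863 to 126849144, had control peaks at its start with folds of 8.17 and 6 and percentiles of 27.8 and 56.3. The nearest AAV-Cre peaks lay 25593 and 90147 bp away. With a window of 2500 bp the call was lost to a peak of AAV-Cre replicate 1 near the other end of the gene, and it held in 12 of 13 alternatives.

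Ndufs4, an accessory subunit whose deletion in mice is a model of Leigh syndrome, lies on chromosome 13 from 114287795 to 114388094. Its control peaks had folds of 6.52 and 4.76 but stood at percentiles 45.4 and 81.1. The call held in 11 of 13 alternatives. That of Ndufa4l2, at percentiles 62.1 and 88.5, held in 9 of 12.

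A further 12 genes missed a peak in 1 library. AAV-Cre replicate 1, the shortest list, alone lacked the peak in 9 of 88 genes (10.2%), against a background of 3.82% of all genes, and AAV-Cre replicate 2 alone in 3. The 9 are Ndufb3, Ndufs3, Ndufc2, Ndufb10, Ndufa7, Cox6a1, Uqcr10, Atp5l and Atp5j2, and the 3 are Ndufa1, Atp5g3 and Atp5d. Ndufb3, a membrane arm subunit of complex I, had folds of 11.27 and 8.09 in the controls and 4.83 in AAV-Cre replicate 2. Uqcr10 had 8.49 and 6.32 in the controls and 4.17, at percentile 91.6, in AAV-Cre replicate 2. The control peaks began at 4704581 and 4704573 on chromosome 11, upstream of the start at 4704344, while the AAV-Cre peak ran from 4703954 to 4704156, inside the gene, and overlapped neither. Atp5j2, a small subunit of the ATP synthase membrane part, stood higher in the list of AAV-Cre replicate 2, at percentile 32.9, than in those of the controls, at 55.4 and 54.6. Counted against both controls, AAV-Cre replicate 1 lacked 14 of 74 genes (18.9%, against 13.6% of all genes open in both controls) and AAV-Cre replicate 2 lacked 8 (10.8%, against 11.2%).

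In the authors' deposited group lists, 58 genes had a peak in both groups, 16 in the control list alone (18.2%, against a background of 9.77%) and 0 in the AAV-Cre list alone. Of the genes with a peak in the control list, these are 21.6%, against 19.1% of all such genes, a share near the background. The 16 comprise the 5 above and 11 of the 12 that missed 1 library, all but Atp5g3, whose group folds were 8.49 and 4.87. Of the 16, 10 belong to complex I, which had 38 of the 74 family genes in the control list. This is 26.3% of the 38, against 21.6% in the family.

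Among the 57 genes open in all 4 libraries, peaks were ranked by −log10 p among the same 9053 genes in each library, so that list length does not enter. The median rank percentile of the family was 46.1 and 49.6 in the controls against 53.4 and 51.1 after AAV-Cre. The rank shift, the mean AAV-Cre percentile less the mean AAV-GFP percentile, had a median of 0.27 points and a mean of 1.46 with an SD of 15.07 over the 57 genes, against a median of -0.28 and an SD of 14.47 over all ranked genes. Both AAV-Cre libraries ranked weaker than both controls in 12 genes (21.1%, background 19%) and stronger in 13 (22.8%, background 19.6%), or 25 in either direction (background 38.7%). These shares are near the background.

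The furthest toward weaker rank was Ndufa2, a matrix arm subunit of complex I, at percentiles 40.2 and 60.6 in the controls against 87.9 and 78.3 after AAV-Cre. Sdhb followed, at 13.1 and 28.0 in the controls against 53.4 and 48.9 after AAV-Cre. Atp5h, in the peripheral stalk of ATP synthase, went from 61.0 and 67.1 to 90.6 and 96.3. Uqcrb was at 37.8 and 79.0, then 87.2 and 79.7, so its controls differed from each other by more than its groups did. These 4 did not overlap between groups, which for any gene has an exact p of 0.33 at best.

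Toward stronger rank the furthest was Ndufs5, an intermembrane space subunit of complex I, at 92 and 81.2 in the controls against 66.2 and 28.6 after AAV-Cre. Uqcrc1 was at 86.9 and 87.0, then 37.7 and 81.6, a shift that rests mainly on AAV-Cre replicate 1. Sdhd, the other membrane anchor of complex II, was at 75 and 63.3, then 58.5 and 39.3. Ndufb1 was at 84.9 and 78.3, then 53.4 and 70.8. Complex II thus had Sdhb among the weaker, Sdhd and Sdha among the stronger, and Sdhc without a peak after AAV-Cre. In complex IV the median shift was 15.44 points over 6 genes, with 2 weaker (33.3%) and 0 stronger. In complex I it was -0.38 over 28 genes, with 3 weaker (10.7%) and 7 stronger (25%), beside the 19% and 19.6% of all ranked genes. The scatter of mean ranks shows the spread to both sides of the diagonal.

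**Figure D4:**
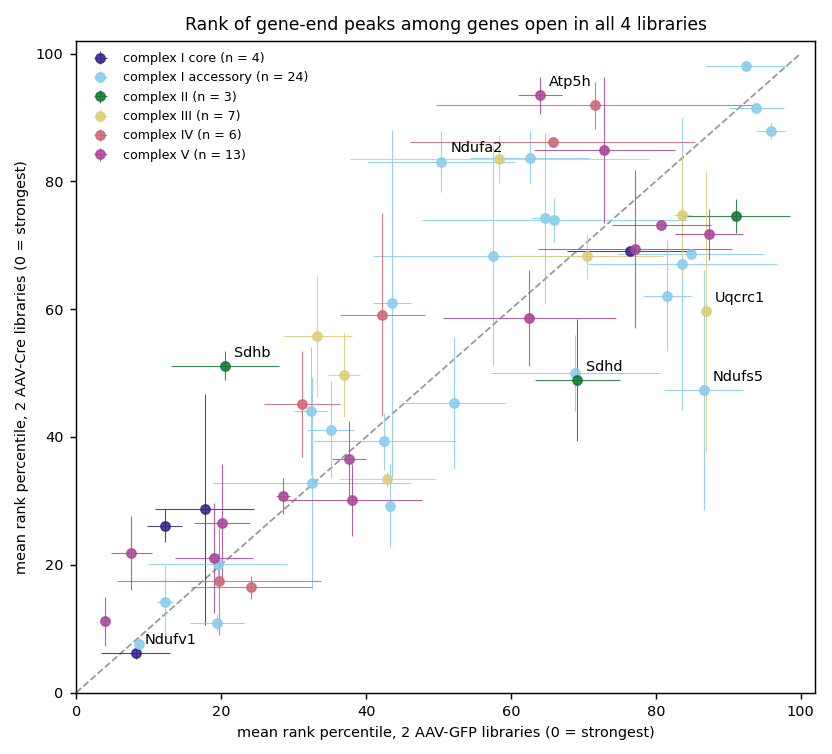
Mean rank percentile of the gene-end peak in the 2 AAV-GFP libraries (horizontal axis) and the 2 AAV-Cre libraries (vertical axis) for the 57 respiratory chain genes open in all 4 libraries, where 0 is the strongest of 9053 genes. Bars join the 2 libraries of a group, the dashed line marks equal rank, and points lie on both sides of it, with Sdhb, Ndufa2 and Atp5h above and Ndufs5 and Uqcrc1 below.

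Respiratory chain genes often shared their open chromatin with a neighbour. The strongest gene-end peak also held the end of another protein-coding gene in 29 of 76 and 29 of 74 open genes in the controls (38.2% and 39.2%), and in 18 of 61 and 25 of 66 after AAV-Cre (29.5% and 37.9%). Over all open genes the shares were 17.4%, 18.6%, 17.4% and 18%. At the level of start sites, 19 of 71 genes (26.8%) had a start on the opposite strand within 1 kb upstream, against 8.48% of all genes with a listed start. Among these 19, 15 (78.9%) were open at the start in all 4 libraries, as were 37 of the other 52 (71.2%). Over all genes the shares were 85.2% and 40.3%.

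Some of these partners are mitochondrial or regulatory genes themselves. The Atp5j start, for a peripheral stalk subunit of ATP synthase, lies 148 bp from that of Gabpa, which encodes the DNA-binding subunit of GABP. A single peak spanned both, with folds of 11.08 and 10.17 in the controls against 7.70 and 8.41 after AAV-Cre. Sdhd lies 52 bp from Timm8b, a chaperone of mitochondrial import, Ndufb5 308 bp from Mrpl47, a mitochondrial ribosomal protein gene, and Ndufa7 10 bp from Rps28, a cytosolic ribosomal protein gene. A peak in such a pair cannot be assigned to either gene. For Ndufb6, the strongest gene-end peak lay at the end that it shares with Topors (fold 9.49, 11.95, 6.64 and 9.76). Its own start-site peak was weaker and present in 3 libraries (5.86, 5.54 and 6.55, none in AAV-Cre replicate 2).

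Gene-end peaks of the family were of ordinary width. Their median was 482 and 532 bp in the controls against 437 and 478 bp after AAV-Cre, against 465, 526, 431 and 451 bp over all genes. Of the genes open in all 4 libraries, Uqcrq, a small complex III subunit, had the widest peaks, at 947, 1052, 809 and 985 bp, followed by Atp5j at 1259, 1128, 538 and 660 bp. The narrowest were those of Ndufs6 at 315, 356, 365 and 182 bp and Uqcr11 at 427, 386, 200 and 239 bp. The share of the family's peaks within the strongest 10% of their list was 43.4%, 25.7%, 14.8% and 21.2%, against 37.6%, 26.5%, 20.3% and 22.0% over all genes, so it was above that of all genes in AAV-GFP replicate 1 and below it in the other libraries.

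Genes that serve the chain but fall outside the symbol rule were open more often. Of 48 assembly factors, which build the complexes, 43 (89.6%) were open at a gene end in every library, 0 were control-specific and 0 Cre-specific. Of the 46 open in both controls, 93.5% were open in both AAV-Cre libraries, against 77.0% of the 74 subunit genes and 81.3% of all genes open in both controls. Surf1 and Tmem70, assembly factors of complexes IV and V, lacked a peak in AAV-Cre replicate 1 alone. All 16 tricarboxylic acid cycle genes were open in all 4 libraries. Of 16 genes for electron carriers and ubiquinone synthesis 13 were, and Coq5, a ubiquinone methyltransferase, was control-specific (4.96 and 6.35). The 13 include Cyc1, for cytochrome c1, a complex III subunit that the symbol rule leaves out.

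Of 18 regulators of these genes, 15 were open at a gene end in each library, and Gabpb1, Esrrb and Esrrg in none. Nrf1 had folds of 13.32 and 9.39 in the controls against 8.92 and 8.56 after AAV-Cre. Tfam, which packages and transcribes mitochondrial DNA, had 9.39, 12.79, 9.03 and 7.58. Ppargc1a, the coactivator PGC-1 alpha, had 8.67 and 7.51, then 5.89 and 4.89, and Yy1 had 8.37 and 7.09, then 5.88 and 5.24. In rank among open genes Ppargc1a shifted by 18.1 points and Yy1 by 19.3 points toward weaker, and Creb1 by -15.4 points, toward stronger. Over the 15 regulators 3 ranked weaker in both AAV-Cre libraries (20%) and 1 stronger (6.67%), beside 19% and 19.6% of all ranked genes.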

How the data were processed

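Per the submitters' processing notes, reads were handled with FastQC, Trim Galore, Bowtie2 and MACS2 on mm10. Their versions and thresholds are not stated there. The authors deposited 4 library lists and 2 group lists of peaks. Each gives the authors' fold enrichment (a ratio over background), −log10 p and −log10 q values, and a score, which was not used. Peak names of the library lists carry a tag, sub, whose meaning is not given, and those of the group lists mark a pool.

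A gene-end peak overlaps by at least 1 bp the window of 1 kb to each side of either gene end, and the strongest by −log10 p was described. Control-specific genes had a peak in both AAV-GFP and neither AAV-Cre library, and Cre-specific genes the converse. Start sites came from the RefSeq promoter table of the same build, whose 1092 overlapping pairs of entries all read in gene orientation. Python 3.11.15, pandas 2.3.3 and numpy 2.4.6 were used, and calling and ranking were tested on simulated lists. All 98 entries of 4 pathway lists matched. Named were specific and partly missing genes, restricted isoforms, the strongest and weakest of each complex, the 4 largest rank shifts each way and the extreme widths, while Ndufv2, Ndufs8, Ndufa5, Ndufa11, Ndufb5, Ndufb6, Uqcrfs1, Cox4i1, Cox5a, Cox7a2, Cox7b, Cox7c, Atp5g2, Atp5k and the genes outside the family were chosen after their values were seen. Some results on single genes are not reported here. The members and lists were chosen with earlier results of these data known. Labels do not say that libraries came from separate animals, so their spread may be technical. Alternatives covered list length, threshold, window, overlap, merged regions, group lists, start sites, rank measure and each library left out.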

Additional observations from a re-analysis of the deposited data

How the results depend on the processing

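Genes open in all 4 libraries numbered 43 to 66 over the alternatives, within 1.5 times of 57. Control-specific genes, 5 of 88, numbered 13 at a −log10 q of at least 5, 16 in the authors' group lists and 2 at start sites, where 17 genes have no listed start. Over all genes the count was 676, and 1166, 2139 and 512 in the same order. Leaving out a library gave 5 to 14, with 8 without AAV-Cre replicate 1 and 14 without AAV-Cre replicate 2 (1252 and 1513 over all genes). Fewer libraries make a gene specific more easily; what moved the other counts was not tested. Cre-specific genes numbered 0 in each alternative except 1 without AAV-Cre replicate 2, so 0 to 1 over the libraries left out. The median rank shift ran from -1.22 to 1.64, within 1 SD (2.08 points) of its 0.27 between libraries of a group, and its sign was not stable. With the replicate block, which pairs same-numbered libraries, the values were 57, 5, 0 and 0.27, all by construction, so the block tested nothing. Same-numbered libraries did not deviate together (r of -0.019 over genes, necessarily the same for both pairs), and the shared numbers were treated as names only. Depth is unknown and limits every count of missing peaks.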
